A study of Mus musculus with 16 samples.

Results

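Klf1 and 9 further transcription factors of the red cell lineage were followed through bone marrow, tumors and samples labelled MSC, from mice with the genotype label KLF K74R and from their wild-type (WT) counterparts. The members were taken by symbol, and all 10 (Klf1, Gata1, Tal1, Nfe2, Gfi1b, Zfpm1, Lmo2, Ldb1, Bcl11a and E2f2) had a row among the 55536 genes of the table. RNA was sequenced from 3 K74R and 3 WT bone marrows, 3 K74R and 3 WT tumors, and 2 K74R and 2 WT MSC samples, with 14067259 to 18923751 counts per library. The name K74R stands for a change of lysine to arginine. Which KLF gene is meant is not spelled out in the labels, the titles write KO for the same samples, and MSC is not expanded. The tumors were of at most 1000 mm3 and grew from MC38 (mouse colon adenocarcinoma cells), so that the genotype is that of the mouse and the counts mix host and line. Whether replicates were separate mice or cultures is not stated, so the p-values cover only how much these samples spread, which may be technical scatter. Neither the age nor the sex of the mice is given in the sources used here. Transcript levels of Klf1 do not check the genotype labels, since an exchange of 1 amino acid can leave the transcript level as it was.

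Red cell precursors are built by a small set of factors that bind DNA together. GATA1 pairs with its cofactor FOG1, the product of Zfpm1, and joins a complex in which LMO2 and LDB1 bridge GATA1 to the basic helix-loop-helix factor TAL1. KLF1 binds CACCC boxes in the promoters of globin, haem synthesis and red cell membrane genes, and NF-E2, whose large subunit is encoded by Nfe2, acts at the beta-globin locus and in platelet production. GFI1B and BCL11A are repressors, and BCL11A is known for silencing fetal and embryonic globins and for its need in B cell and plasmacytoid dendritic cell development. E2F2 is a cell cycle regulator that maturing erythroblasts need for orderly last divisions. TAL1, LMO2 and LDB1 also work in endothelium, and LMO2 and LDB1 in many other cells.

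The region around the annotated start is shown for 6 members whose levels the results turn on. Klf1, Gata1 and Gfi1b were near absent outside bone marrow, Tal1 and Bcl11a differed between the genotypes in one tissue each, and Ldb1 was present in every tissue. Each window runs from 250 bases before to 50 bases after a RefSeq start on GRCm38.p6 and reads 5′ to 3′ on the gene's strand. Capitals mark matches to a GATA motif (AGATAA, with T allowed as its first and G as its last base) or to a CACCC-type motif (CCNCNCCC), on either strand, and overlapping matches run together.
Klf1, chr8:84901732-84902031, plus strand: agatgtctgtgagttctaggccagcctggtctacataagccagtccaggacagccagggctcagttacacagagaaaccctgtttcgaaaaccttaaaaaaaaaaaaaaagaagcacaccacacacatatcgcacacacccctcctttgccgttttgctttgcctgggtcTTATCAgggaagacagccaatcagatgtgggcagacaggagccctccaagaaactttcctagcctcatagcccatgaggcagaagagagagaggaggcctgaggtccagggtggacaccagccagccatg
Gata1, chrX:7967861-7968160, minus strand: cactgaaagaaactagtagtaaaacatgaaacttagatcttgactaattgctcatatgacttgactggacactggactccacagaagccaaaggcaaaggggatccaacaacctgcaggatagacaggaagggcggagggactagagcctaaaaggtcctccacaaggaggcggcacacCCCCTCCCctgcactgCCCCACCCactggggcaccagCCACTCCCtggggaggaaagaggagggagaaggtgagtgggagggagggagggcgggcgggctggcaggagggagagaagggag
Gfi1b, chr2:28621933-28622232, minus strand: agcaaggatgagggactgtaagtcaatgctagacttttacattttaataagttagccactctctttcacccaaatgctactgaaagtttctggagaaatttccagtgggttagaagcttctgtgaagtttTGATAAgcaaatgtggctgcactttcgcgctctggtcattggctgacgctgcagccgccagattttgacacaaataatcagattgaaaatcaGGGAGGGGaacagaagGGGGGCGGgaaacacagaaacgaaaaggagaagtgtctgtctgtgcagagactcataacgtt
Tal1, chr4:115056176-115056475, plus strand: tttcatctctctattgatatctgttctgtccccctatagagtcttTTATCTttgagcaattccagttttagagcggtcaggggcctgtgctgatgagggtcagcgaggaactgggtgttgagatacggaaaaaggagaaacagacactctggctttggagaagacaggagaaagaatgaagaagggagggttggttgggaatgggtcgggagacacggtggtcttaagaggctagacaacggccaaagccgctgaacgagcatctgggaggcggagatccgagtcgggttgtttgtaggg
Bcl11a, chr11:24080445-24080744, plus strand: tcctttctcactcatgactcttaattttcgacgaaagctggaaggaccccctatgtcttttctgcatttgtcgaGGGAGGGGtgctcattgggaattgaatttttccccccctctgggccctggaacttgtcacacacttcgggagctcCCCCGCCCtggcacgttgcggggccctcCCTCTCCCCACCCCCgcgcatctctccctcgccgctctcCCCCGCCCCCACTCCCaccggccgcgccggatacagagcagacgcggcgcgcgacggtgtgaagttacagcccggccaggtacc
Ldb1, chr19:46045262-46045561, minus strand: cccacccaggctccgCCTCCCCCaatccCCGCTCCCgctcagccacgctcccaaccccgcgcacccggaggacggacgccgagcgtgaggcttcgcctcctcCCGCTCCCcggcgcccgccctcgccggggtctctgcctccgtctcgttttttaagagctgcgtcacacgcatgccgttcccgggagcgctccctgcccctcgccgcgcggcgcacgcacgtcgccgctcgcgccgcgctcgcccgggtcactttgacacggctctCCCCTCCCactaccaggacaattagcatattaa
The Klf1 window held 1 GATA match, 80 bases before the start, and 0 CACCC-type matches. The Gata1 window held 3 CACCC-type and 0 GATA matches, and the Gfi1b window held 1 GATA and 2 CACCC-type matches. The Tal1 window shown held 1 GATA match, and a second Tal1 window, not shown, held 4 CACCC-type matches and 0 GATA matches. The Bcl11a window held 8 CACCC-type matches, and the Ldb1 window shown held 4. In all, 8 of the 10 members had 12 windows, of which 4 held a GATA match and 10 a CACCC-type match. Among 32851 windows of the same length, 29.8% held the GATA motif, 49.5% the CACCC-type motif and 10.2% both. The Gfi1b window and 1 of the 3 Ldb1 windows held both. Such a match is a string of letters and not a measured site. Nfe2 and Lmo2 had no entry.

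Every member was at its highest in bone marrow, and the members differed in how much of them was left elsewhere. Levels are in CPM, which are counts brought to one library size across all 16 libraries. In WT libraries all 10 were higher in bone marrow than in MSC and higher in bone marrow than in tumors by the quasi-likelihood test of edgeR, adjusted by Benjamini-Hochberg. The background is wide, since 36.3% of all genes tested were called higher in bone marrow than in MSC and 36.4% higher than in tumors. The members were named as erythroid factors and bone marrow holds erythroblasts, so these counts describe the tissues. The sum over 24 red cell markers was 712 and 528 CPM in K74R MSC and 585 and 282 CPM in WT MSC. Tfrc, the transferrin receptor gene of all dividing cells, gave 357 CPM in K74R and 281 CPM in WT on average, and Slc25a37, a mitochondrial iron carrier gene, 112 and 90.9 CPM. Aqp1 differed more between the genotypes, with 146.5 and 79.7 CPM in K74R and 21.6 and 7.18 CPM in WT MSC (adjusted p = 0.0561 by edgeR). Of the same list Slc4a1, Kel, Hemgn, Trim58, Tspo2 and Cldn13 stood at 0 in all 4 MSC libraries. Hbb-bs, an adult beta-globin gene, averaged 19195 CPM in K74R and 18745 CPM in WT bone marrow (3 libraries each). In tumors it averaged 147 CPM in K74R and 233 CPM in WT. The part of blood in the tumor values was not tested. Fewer cells of a type and less RNA per cell cannot be told apart in these bulk samples.

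**Figure D1:**
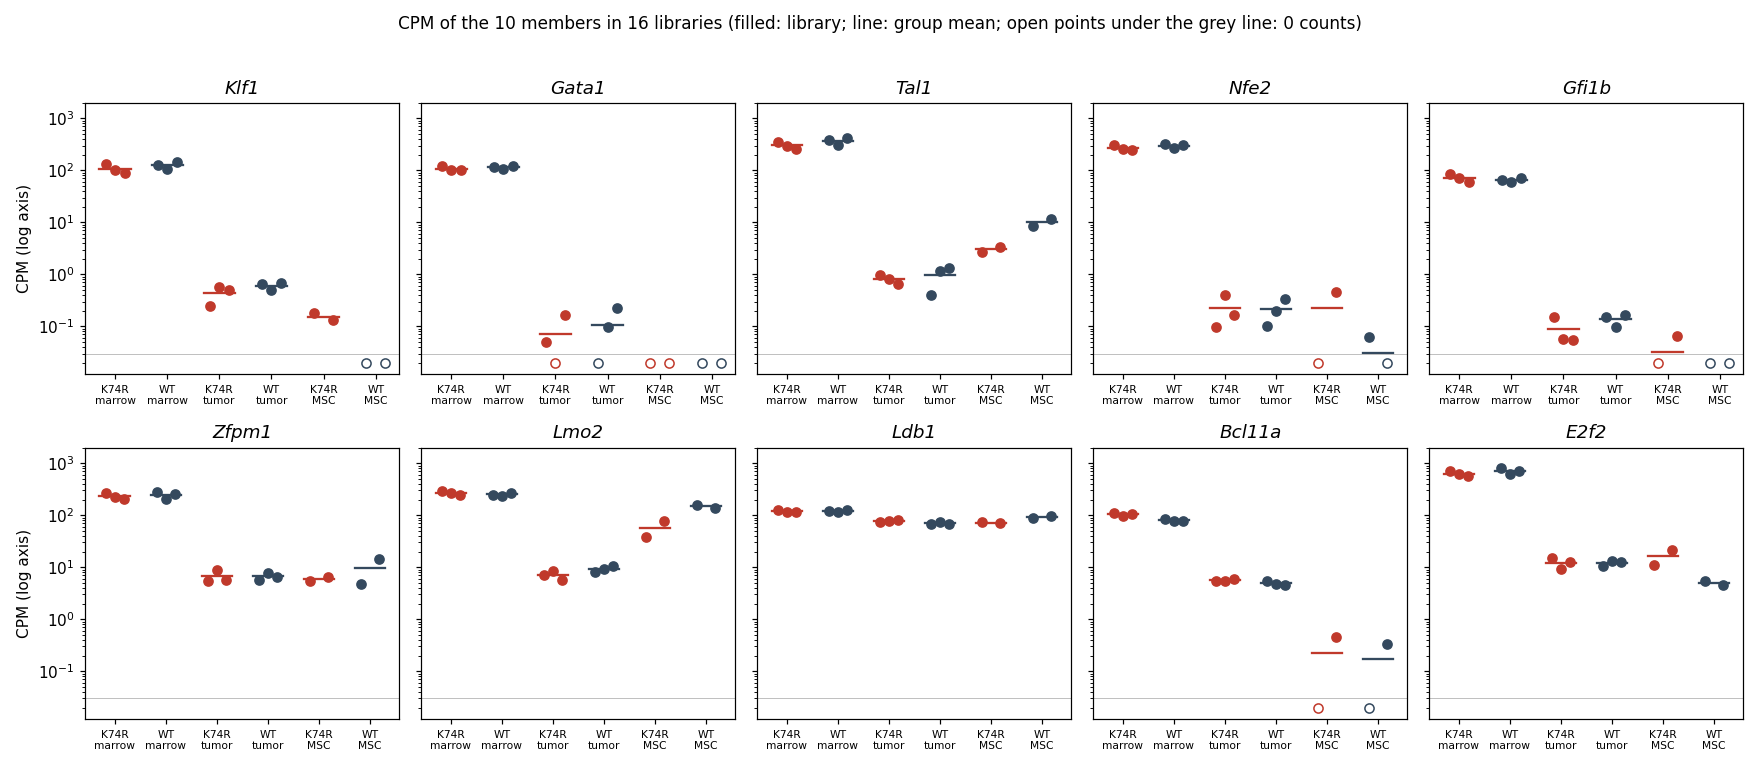
CPM of the 10 members on a log axis in each of the 16 libraries, with K74R in red and WT in dark blue. Lines are group means and open points under the grey line are libraries with 0 counts. Ldb1 stayed between 67.9 and 127 CPM in every tissue, whereas Gata1 was at 0.223 CPM or less outside bone marrow.

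Klf1 (ENSMUSG00000054191, chromosome 8, plus strand, positions 84901928 to 84905291 of GRCm38) had 133, 102 and 87.1 CPM in K74R bone marrow, against 127, 104 and 141 CPM in WT bone marrow. The genotypes overlapped, with the lowest library on the K74R side and the highest on the WT side. Outside bone marrow Klf1 was close to its limit of detection. It had 0.248, 0.573 and 0.494 CPM in K74R tumors and 0.656, 0.493 and 0.668 CPM in WT tumors. MSC held 3 and 2 counts in the K74R libraries and 0 in both WT libraries, where a count of 0 allows up to 0.0967 CPM over the group (3 counts, counting error only). Against that floor WT bone marrow was at least 1285-fold higher than WT MSC. The log2 difference between WT bone marrow and WT tumor was 7.68 (SE 0.19).

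Gata1 (chromosome X) encodes the factor without which red cell precursors die. It had 121, 102 and 101 CPM in K74R bone marrow, against 115, 105 and 122 CPM in WT bone marrow, and the ranges overlapped. It had 4 counts in all in the K74R tumors and 6 in the WT tumors, and 0 in all 4 MSC libraries. WT bone marrow stood at least 1182-fold above WT MSC. Zfpm1 (chromosome 8), the cofactor of GATA1, had a wider reach. It had 272, 220 and 206 CPM in K74R bone marrow, against 273, 204 and 258 CPM in WT bone marrow, with overlapping ranges. Outside bone marrow it lay between 4.80 and 14.4 CPM, and the WT MSC pair, at 4.80 and 14.4 CPM, was the most divergent.

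Tal1 (chromosome 4), the helix-loop-helix member of the complex, had 355, 297 and 262 CPM in K74R bone marrow, against 386, 306 and 419 CPM in WT bone marrow. The ranges overlapped, and the lowest and the highest library fell on the K74R and the WT side. Lmo2 (chromosome 2), the bridge between TAL1 and GATA1, had 296, 270 and 242 CPM in K74R bone marrow, against 249, 236 and 268 CPM in WT bone marrow. Lmo2 was also present in MSC, where WT libraries had 156 and 140 CPM, so that WT bone marrow exceeded WT MSC by a log2 difference of 0.77 (SE 0.13). In tumors it was lower, at 6.98, 8.37 and 5.66 CPM in K74R and 7.92, 9.42 and 10.7 CPM in WT. Ldb1 (chromosome 19), the adaptor that lets bound complexes meet, varied least of the members across tissues. It had 125, 114 and 116 CPM in K74R and 123, 114 and 127 CPM in WT bone marrow. In tumors it had 72.3, 77.8 and 80.3 CPM in K74R and 67.9, 73.0 and 69.1 CPM in WT. Pprc1, a gene on the opposite strand, shares 177 exon bases with Ldb1 (3.84% of its exons), and since the sources used here do not give the strand setting of the counting, reads of that stretch cannot be told apart.

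Nfe2 (chromosome 15) had 302, 259 and 247 CPM in K74R bone marrow, against 321, 270 and 300 CPM in WT bone marrow, with overlapping ranges. It had 0.401 CPM or less in every tumor library and 0 and 7 counts in K74R and 1 and 0 counts in WT MSC. The ratio of WT bone marrow to WT MSC, 9201-fold, rests on that 1 count, and its counting interval runs from 1651 to 363458. Gfi1b (chromosome 2), a repressor that GATA1 works with, had 83.9, 71.7 and 58.3 CPM in K74R bone marrow, against 64.2, 60.4 and 70.8 CPM in WT bone marrow. Here the K74R libraries held both the highest and the lowest value. Gfi1b had 1 count in the K74R MSC libraries together and 0 in the WT pair, at least 673-fold below WT bone marrow, and at most 0.167 CPM in any tumor. Bcl11a (chromosome 11) had 109, 98.5 and 106 CPM in K74R bone marrow, against 83.0, 78.2 and 76.3 CPM in WT bone marrow, without overlap. It lay between 4.45 and 5.99 CPM in tumors and had 0 and 7 counts in K74R and 0 and 5 counts in WT MSC. E2f2 (chromosome 4) had 702, 614 and 577 CPM in K74R bone marrow, against 816, 611 and 720 CPM in WT bone marrow, with overlapping ranges.

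Per kilobase of annotated exon, which allows genes to be compared, the order of levels in bone marrow was led by E2f2 in both genotypes. E2f2 had 129 ± 13.1 CPM per kilobase in K74R and 147 ± 21.0 in WT bone marrow (SD, n = 3 each). Lmo2 followed with 124 ± 12.5 in K74R and 116 ± 7.48 in WT, and its range overlapped that of E2f2 in K74R and not in WT. Nfe2, Tal1, Klf1 and Zfpm1 came next, and each overlapped its neighbour in both genotypes. Klf1 had 70.2 ± 15.4 CPM per kilobase in K74R and 81.2 ± 12.2 in WT. Gata1, Gfi1b, Ldb1 and Bcl11a closed the order, Bcl11a with 7.94 ± 0.416 in K74R and 6.01 ± 0.261 in WT. The length is the union of all annotated exons, 13175 bases for Bcl11a, so genes with rarely used exons read low.

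Between tumor and MSC, the WT libraries split the members. Lmo2 (log2 difference -3.99, SE 0.14), Tal1 (-3.39, SE 0.32) and Ldb1 (-0.43, SE 0.09) were lower in tumor than in MSC. E2f2 (1.27, SE 0.18) was higher in tumor. Bcl11a was also called higher, but from 0 and 5 counts in the WT MSC pair, and its log2 difference ran from 3.82 to 9.37 over the alternatives. Klf1, Nfe2 and Gfi1b were also called higher in tumor, from 0, 1 and 0 counts in the WT MSC pair. Klf1 was at least 6.26-fold higher there, while the counting interval of the Nfe2 ratio, 0.949 to 274, spans no difference. Gata1 and Zfpm1 were not called. Of all genes, 34.5% were called higher and 32.8% lower in tumor than in MSC. In the K74R libraries 3 members were called (Tal1, Lmo2 and Bcl11a, in the same directions), and there the log2 difference of E2f2 was -0.39 and that of Ldb1 0.09, both of the opposite sign.

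The genes whose levels ran most like Klf1 were found by the root mean square difference of log2(CPM + 0.5), each centred on its own mean, among 8882 genes with at least 10 CPM in bone marrow. Over all 16 libraries Gfi1b was nearest (0.33), followed by Slc38a5 (0.33), an amino acid transporter gene, Trim58 (0.34), which encodes a ubiquitin ligase of late erythroblasts, Ly6g (0.37), a neutrophil surface marker, and Sowaha (0.39). Gata1 ranked 8, and the median of all genes was 3.46. This measure is dominated by the gap between bone marrow and the other tissues. Within the 6 bone marrow libraries the nearest were Ubac1 (0.04), Phyhip (0.06), Dusp7 (0.06), Tal1 (0.06) and Mcph1 (0.06), against a median of 0.25. Among the members Tal1 thus ranked 4 and Bcl11a last, at 7803.

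In K74R bone marrow 1 of the 10 members changed relative to WT, and 0.773% of all genes tested were called. Bcl11a rose, with 105 ± 5.48 CPM in K74R and 79.1 ± 3.44 CPM in WT bone marrow (SD, n = 3 each). Its log2 fold change was 0.42 (SE 0.07, adjusted p = 0.0454, quasi-likelihood test of edgeR, Benjamini-Hochberg over 14872 genes). All 3 K74R libraries lay above all 3 WT libraries, and how many of all genes separate in this way in CPM was not counted. The call sits at the threshold: it passed in 6 of 15 alternatives, with adjusted p-values from 0.0017 with DESeq2 to 0.474 with all 16 libraries in a single model. It was lost with limma-voom (0.0521), with library size alone (0.0511) and without any single library except WT library 2, while the fold change stayed between 0.38 and 0.45. Bcl11a shares 316 exon bases with an antisense gene that had 87 counts over all 16 libraries.

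The other 9 members did not pass in bone marrow in the edgeR fit or in any of 15 alternatives. Tal1 had a log2 fold change of -0.27 (SE 0.13, adjusted p = 0.332 by edgeR), Klf1 of -0.20 (SE 0.15) and E2f2 of -0.17 (SE 0.11). Gfi1b stood at 0.15 (SE 0.12), Lmo2 at 0.12 (SE 0.09), Nfe2 at -0.13 (SE 0.09) and Gata1 at -0.07 (SE 0.09). Zfpm1 had -0.06 (SE 0.13) and Ldb1 -0.02 (SE 0.07). At this depth, from 2827 to 31166 counts per member and genotype, such differences were within the spread of the replicates.

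**Figure D2:**
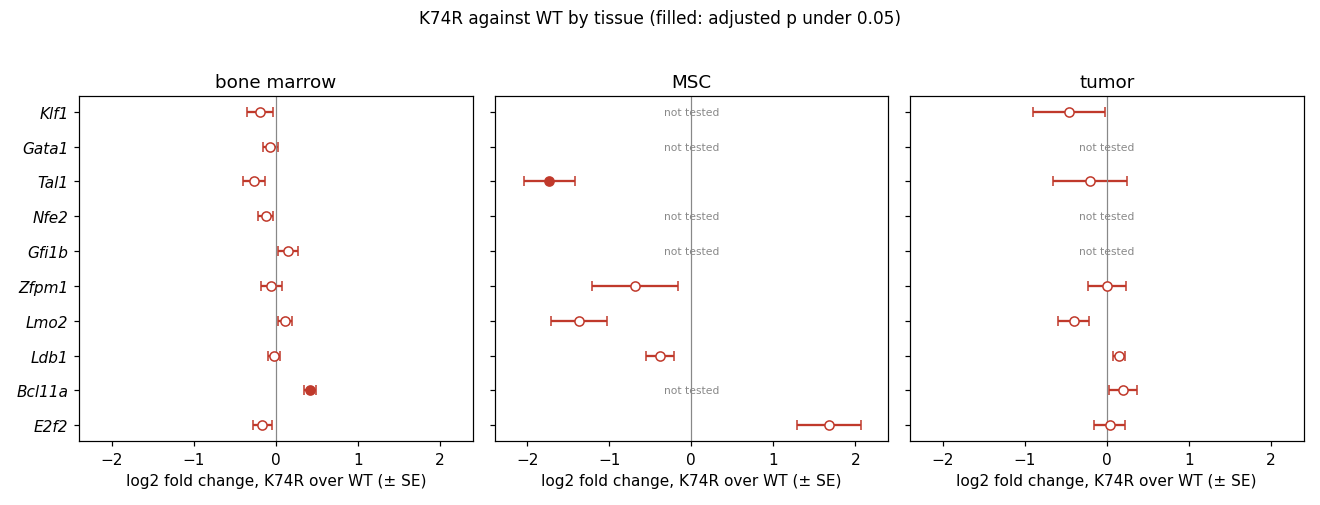
Log2 fold change of each member, K74R over WT, with its SE, in bone marrow, MSC and tumor, with filled points for adjusted p under 0.05 by edgeR. Bcl11a in bone marrow (0.42) and Tal1 in MSC (-1.74) are filled.

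The bone marrow libraries differed in erythroid content within each genotype. The sum over 24 red cell marker genes, with globins and members left out, was 23696, 19937 and 16985 CPM in K74R bone marrow, against 24822, 18286 and 23921 CPM in WT bone marrow. K74R library 1, the highest in that sum, was the highest of its group for all 10 members, and K74R library 3, the lowest, held the lowest value of 8. In WT, library 1, with the highest sum, was the highest for 4 members and library 3, close behind, for 6. WT library 2, the lowest of its group, held the lowest value of 9 members, Bcl11a being the exception. Of the markers tested 0 of 23 passed with edgeR, DESeq2 and limma-voom, with 0 higher and 1 lower at an unadjusted p under 0.05. The median log2 fold change of the list was -0.06, beside 0.00 over all genes.

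Set against the erythroid sum of the same library, 3 members did not overlap between the genotypes: Bcl11a, Gfi1b and Tal1. Of all genes tested, 8.14% did not overlap on this scale. The log2 ratio of Gfi1b was -8.14, -8.12 and -8.19 in K74R and -8.60, -8.24 and -8.40 in WT, a difference of 0.26. That of Tal1 was -6.06, -6.07 and -6.02 in K74R and -6.01, -5.90 and -5.84 in WT, a difference of -0.14. That of Bcl11a was -7.76, -7.66 and -7.32 in K74R and -8.22, -7.87 and -8.29 in WT, a difference of 0.55. For each the exact two-sided permutation p was 0.1, the smallest that 3 against 3 libraries allow, and 0.333 after adjustment over the 10 members. The ratio of Klf1 differed by -0.08 (exact permutation p = 0.3) and overlapped.

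**Figure D3:**
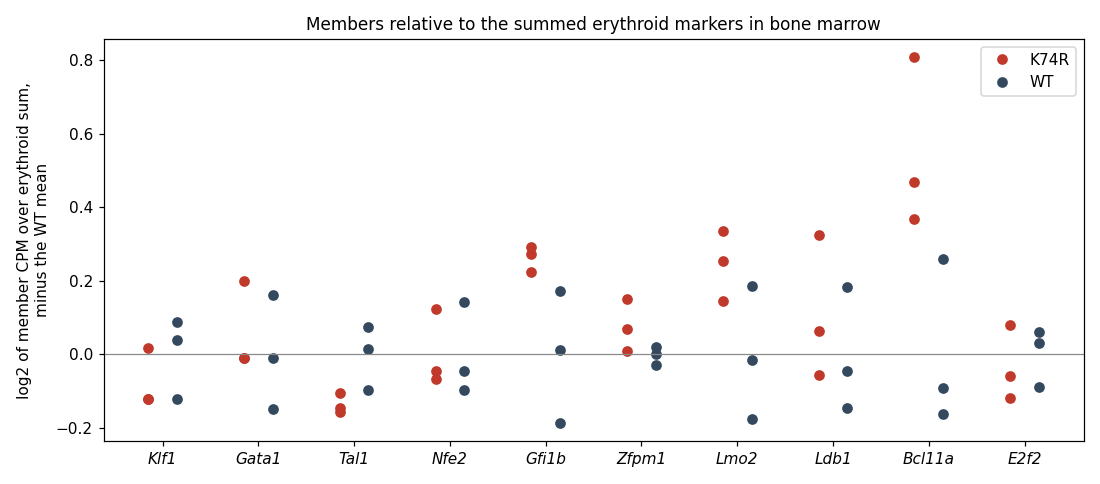
Log2 of each member's CPM over the summed CPM of 24 erythroid markers in the same bone marrow library, less the WT mean, for 3 K74R (red, left) and 3 WT (dark blue, right) libraries. Bcl11a and Gfi1b lie above and Tal1 below the WT libraries, while the remaining members overlap.

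The sum over 20 B cell marker genes, like Bcl11a, did not overlap between the genotypes, with 2454, 3218 and 3450 CPM in K74R bone marrow, against 1593, 2376 and 1212 CPM in WT bone marrow. Within the genotypes, K74R library 1 had the highest Bcl11a and the lowest B cell sum of its group, while WT library 3 was the lowest of its group in both. With 3 libraries per genotype, whether the 2 run together cannot be told. All 20 had a positive fold change, 17 of them at an unadjusted p under 0.05 (17.8% of all genes tested in bone marrow were under it, in either direction). Of the 20, 0 passed with edgeR or limma-voom and 4 rose with DESeq2. Rag1, a recombinase gene of early lymphocytes, had 193 ± 36.5 CPM in K74R and 72.3 ± 35.6 CPM in WT (adjusted p = 0.0798 by edgeR). The log2 ratio of Bcl11a to the B cell sum was -4.49, -5.03 and -5.02 in K74R and -4.26, -4.93 and -3.99 in WT, so it overlapped (difference -0.45, exact two-sided permutation p = 0.2). Markers of plasmacytoid dendritic cells summed to 490, 505 and 557 CPM in K74R and 425, 486 and 396 CPM in WT bone marrow, with 10 of 11 positive and 0 called by edgeR, DESeq2 or limma-voom. Markers of mast cells, basophils and eosinophils, lineages that also use GATA1 or GFI1B, summed to 2219, 2571 and 2399 CPM in K74R and 1796, 2149 and 1702 CPM in WT, and 3 of 17 rose with edgeR, 6 with DESeq2 and 2 with limma-voom. Neutrophil markers summed to 32359, 31552 and 29764 CPM in K74R bone marrow, against 38379, 35503 and 38339 CPM in WT bone marrow, lower without overlap. Of these 14 genes 0 passed with edgeR or limma-voom, while DESeq2 called 1 higher and 5 lower, and 1 higher and 6 lower had an unadjusted p under 0.05. Megakaryocyte markers summed to 2339, 2997 and 3227 CPM in K74R and 2074, 4057 and 3883 CPM in WT bone marrow, with overlap. All 15 tested had a negative fold change, 1 of them at an unadjusted p under 0.05, and 0 were called by edgeR. The part of these cells in the Bcl11a result was not tested.

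**Figure D4:**
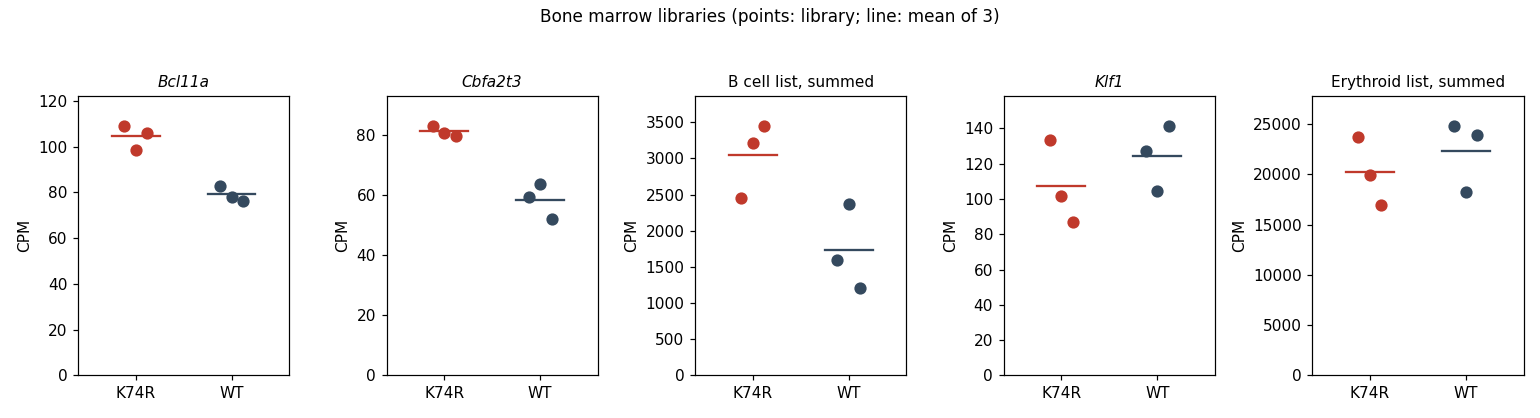
CPM per bone marrow library (points) and mean of 3 (line) for Bcl11a, Cbfa2t3, the summed B cell list, Klf1 and the summed erythroid list, K74R left of WT. Bcl11a and Cbfa2t3 do not overlap between the genotypes, and the B cell sums lie between 2454 and 3450 CPM in K74R and between 1212 and 2376 CPM in WT.

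Among 47 listed partners and cofactors, 1 of the 44 tested in bone marrow rose and 0 fell with edgeR, against 2 and 0 with DESeq2 and none with limma-voom. This was Cbfa2t3, which encodes ETO2, a corepressor bound to the TAL1 and LMO2 complex. It had 83.1, 80.9 and 79.8 CPM in K74R bone marrow, against 59.3, 63.8 and 52.2 CPM in WT bone marrow, without overlap (edgeR log2 fold change 0.49, SE 0.09, adjusted p = 0.0478). Cbfa2t3 passed in 6 of 15 alternatives, with adjusted p-values from 0.00085 to 0.631. Among 45 listed genes of the KLF1 target programme (globins, haem synthesis, membrane and transport), 0 of 42 tested passed in bone marrow with edgeR or limma-voom, against 1 higher and 1 lower with DESeq2. At an unadjusted p under 0.05, 1 was higher and 3 were lower, a smaller share than the 17.8% over all genes. Pim1, a kinase gene, had 130 ± 19.2 CPM in K74R and 225 ± 69.9 CPM in WT bone marrow (adjusted p = 0.126 by edgeR), with 146 CPM in WT library 2. The embryonic globin genes, which KLF1 and BCL11A bear on, could not be tested, since their 4 genes together had at most 0.342 CPM in K74R and 0.918 CPM in WT bone marrow. Of 12 further E2F, DP and pocket protein genes 0 passed in bone marrow with edgeR, DESeq2 or limma-voom, with 0 higher and 1 lower at an unadjusted p under 0.05. That 1 was Tfdp1, the partner subunit of E2F proteins, with 278 ± 20.3 CPM in K74R and 325 ± 28.3 CPM in WT.

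The MSC libraries differed between the genotypes in more than the members, and WT library 2 stood apart in endothelial genes. Of all genes tested, 3.34% were called there. The sum over 14 endothelial markers was 97.7 and 111 CPM in K74R MSC, against 446 and 2178 CPM in WT MSC, and 8 of the 13 tested fell with edgeR, 10 with DESeq2 and 0 with limma-voom. Erg, an endothelial transcription factor gene, had 0.177 and 0.455 CPM in K74R and 13.7 and 51.5 CPM in WT MSC. Macrophage markers summed to 4694 and 5970 CPM in K74R MSC, against 10011 and 8101 CPM in WT MSC, and 1 of 14, the complement gene C1qa, fell (log2 fold change -1.33, adjusted p = 0.0482 by edgeR). DESeq2 called 2 of the macrophage genes higher and 7 lower, and limma-voom 1 lower. Mesenchymal markers, such as collagens, summed to 15552 and 20094 CPM in K74R and 15298 and 17022 CPM in WT MSC, with 0 of 17 called by edgeR or limma-voom, against 6 higher and 2 lower by DESeq2. The part of endothelial cells and macrophages in the results on MSC below was not tested.

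Of the 5 members that passed the filter on low counts in MSC, 1 changed with edgeR, where 3.34% of all genes tested were called. At an unadjusted p under 0.05 stood 3 of the 5, beside 26% of all genes. Lack of overlap between 2 and 2 libraries, given for genes below, is a weak criterion. Its share over all genes was not counted. Tal1 fell, with 2.71 and 3.31 CPM in K74R MSC, against 8.61 and 11.4 CPM in WT MSC, without overlap. The log2 fold change was -1.74 (SE 0.31, adjusted p = 0.0497, edgeR's quasi-likelihood test over 14475 genes), from 97 counts in K74R and 308 in WT. Tal1 passed in 6 of 14 alternatives, among them the replicate block and a crossed replicate block chosen after seeing the data. The call was lost with relative log expression factors (adjusted p = 0.0520), limma-voom (0.0560), library size alone (0.0589) and the 1 CPM filter (0.0509), and with each library left out (0.0597 to 0.203), the fold change staying between -1.53 and -1.92. Without WT library 2, the one with the high endothelial sum, it was -1.53 with adjusted p = 0.150.

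Lmo2 had 38.5 and 76.3 CPM in K74R MSC, against 156 and 140 CPM in WT MSC, also without overlap. Its log2 fold change of -1.37 (SE 0.34) had an adjusted p of 0.0845 by edgeR. It passed in 6 of 14 alternatives, among them DESeq2 (0.0037). Ldb1 had 74.5 and 69.6 CPM in K74R MSC, against 90.0 and 97.2 CPM in WT MSC, a log2 fold change of -0.38 (SE 0.17, adjusted p = 0.217 by edgeR). Zfpm1 had 5.41 and 6.49 CPM in K74R MSC, against 4.80 and 14.4 CPM in WT MSC, and overlapped. The partner list held 1 gene of 40 that fell in MSC and 0 that rose with edgeR, beside 3.34% of all genes called, while DESeq2 called 2 higher and 4 lower and limma-voom 1 lower. The gene called by edgeR was Lyl1, the closest relative of Tal1, with 2.06 and 3.64 CPM in K74R MSC, against 29.1 and 36.8 CPM in WT MSC (edgeR log2 fold change -3.54, SE 0.34, adjusted p = 0.0196). Lyl1 passed in 13 of 14 alternatives.

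E2f2 stood on the other side, with 10.8 and 21.4 CPM in K74R MSC, against 5.47 and 4.47 CPM in WT MSC. The groups of 2 libraries each did not overlap. The log2 fold change of 1.68 (SE 0.39) had an adjusted p of 0.0740 by edgeR and passed in 5 of 14 alternatives. Of the 12 further E2F, DP and pocket protein genes 2 rose in K74R MSC and 0 fell with edgeR and limma-voom, against 2 and 1 with DESeq2. E2f7 and E2f8, the atypical E2Fs that repress cell cycle genes, had 23.5 and 21.3 CPM and 22.2 and 26.6 CPM in K74R MSC. In WT MSC E2f7 had 4.61 and 3.93 CPM and E2f8 5.53 and 3.12 CPM. Their log2 fold changes were 2.38 (SE 0.24, adjusted p = 0.0196) and 2.48 (SE 0.34, adjusted p = 0.0319) by edgeR. Of 26 genes of the KLF1 target list tested in MSC 0 rose and 1, Pim1, fell (12.2 and 13.5 CPM in K74R, against 31.2 and 26.5 CPM in WT, adjusted p = 0.0495 by edgeR, passing in 6 of 14 alternatives). DESeq2 called 3 of these genes higher and 2 lower, and limma-voom 0. Leaving out K74R library 1 ended every call in MSC, with 0 genes called in all by edgeR.

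**Figure D5:**
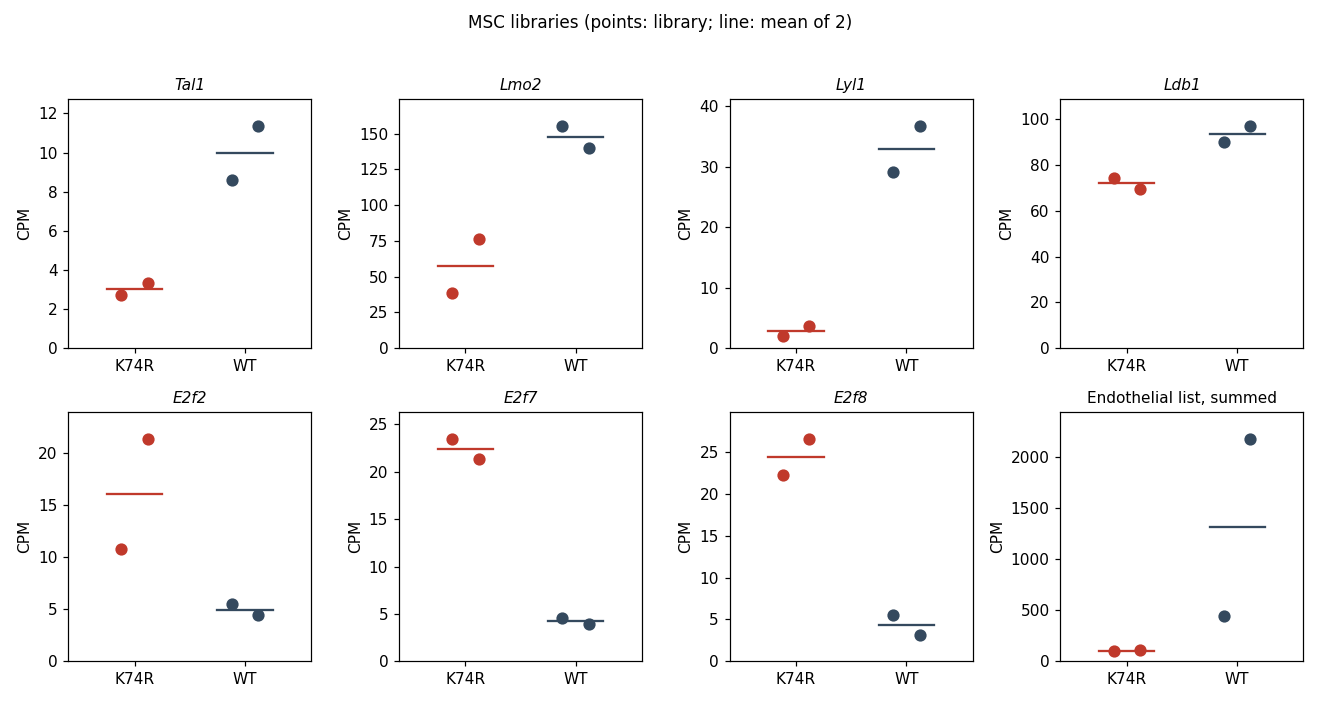
CPM in the 2 K74R (red) and 2 WT (dark blue) MSC libraries for Tal1, Lmo2, Lyl1, Ldb1, E2f2, E2f7, E2f8 and the summed endothelial list. Tal1, Lmo2, Lyl1 and Ldb1 lie lower and the E2F genes higher in both K74R libraries, and WT library 2 carries an endothelial sum of 2178 CPM.

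In tumors 0 of the 7 members tested changed with edgeR, DESeq2 or limma-voom, and 0 had an unadjusted p under 0.05, where 0.0406% of all genes tested were called. Lmo2 had a log2 fold change of -0.40 (SE 0.19, adjusted p = 0.470 by edgeR). Its ranges overlapped, beside endothelial sums of 171, 200 and 162 CPM in K74R tumors and 213, 238 and 252 CPM in WT tumors. Ldb1 had a log2 fold change of 0.15 (SE 0.07, adjusted p = 0.487 by edgeR). Klf1, from 24 counts in K74R tumors and 35 in WT tumors, had -0.46 (SE 0.43), and Tal1, from 46 and 55 counts, had -0.20 (SE 0.46). Tal1 had 0.990, 0.802 and 0.659 CPM in K74R and 0.403, 1.13 and 1.34 CPM in WT tumors. Zfpm1 had 5.50, 8.88 and 5.55 CPM in K74R and 5.75, 7.74 and 6.57 CPM in WT tumors. E2f2 had 14.96, 9.11 and 12.7 CPM in K74R and 10.3, 13.1 and 12.8 CPM in WT tumors. Bcl11a had 5.45, 5.33 and 5.99 CPM in K74R and 5.45, 4.83 and 4.45 CPM in WT tumors, a log2 fold change of 0.20 (SE 0.17). Of the KLF1 target list 0 of 33 passed in tumors, of the partners 0 of 45 and of the E2F genes 0 of 12 with edgeR, with 0, 9 and 1 at an unadjusted p under 0.05, beside 11.2% of all genes tested in tumors. DESeq2 called 1 partner lower and limma-voom 0. Ikzf1, a lymphoid zinc finger gene, had 13.3 ± 3.63 CPM in K74R and 21.0 ± 0.928 CPM in WT tumors (adjusted p = 0.316 by edgeR).

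Whether the genotype effect differed between tissues was tested in a single model of all 16 libraries. That model shares its estimate of spread across tissues, while MSC replicates were the least alike. Chi-square per degree of freedom between replicates was 53.0 in K74R and 46.7 in WT MSC, and at most 17.6 elsewhere. Differences that involve MSC may therefore be called too easily. Within MSC alone Lmo2, E2f2 and Ldb1 did not pass by edgeR (adjusted p = 0.0845, 0.0740 and 0.217). Between bone marrow and MSC the genotype effect differed for 3 members, where 18.8% of all genes were called. The log2 fold change was more positive in bone marrow than in MSC for Lmo2 (difference 1.47, SE 0.30, adjusted p = 0.0040) and Tal1 (1.45, SE 0.34, adjusted p = 0.0088) and more negative for E2f2 (-1.87, SE 0.36, adjusted p = 0.0026), all by edgeR. Between tumor and MSC it differed for E2f2 (-1.66, SE 0.37, adjusted p = 0.0104) and Ldb1 (0.51, SE 0.13, adjusted p = 0.0176), where 10.6% of all genes were called. Between bone marrow and tumor 0 of 10 members were called with edgeR, DESeq2 or limma-voom and 0 had an unadjusted p under 0.05 (11.5% of all genes did), with 0.0385% of all genes called. The first 2 comparisons share the MSC libraries. Klf1, Gata1, Nfe2, Gfi1b and Bcl11a had at most 7 counts in any MSC library, and no difference that involves MSC is given for them.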

How the data were processed

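Per the labels' protocols, TRIzol RNA went into KAPA mRNA HyperPrep libraries. The values deposited are raw counts for each gene, made by the authors with Trimmomatic 0.38, HISAT2 2.1.0 and featureCounts 1.6.0 on GRCm38, with FastQC and MultiQC for quality, per the submitters' processing notes. The sources used here do not give the annotation, the strand setting or the handling of multi-mapped reads. Identifiers were matched to GENCODE release M21 (55536 of 55536), and 265 of 266 list symbols had a match. The WT tumor column names carry a letter R, and the WT MSC ones KCF where the K74R ones have KLF. What these mean is not given.

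CPM used library totals times TMM (trimmed mean of M-values) factors over all 16 libraries, so that tissues share a scale. Genotypes were compared within a tissue, and tissues among the 8 WT libraries, with edgeR 4.0.16 in R 4.3.3 (TMM, filterByExpr, quasi-likelihood test, Benjamini-Hochberg adjustment over all genes, threshold 0.05). A standard error (SE) is the log2 fold change over the square root of F. Fold changes carry a prior count of 0.125. Alternatives were relative log expression factors, library size alone, TMM without globin and mitochondrial genes, no filter (any gene with 1 count or more), a 1 CPM minimum, limma-voom (limma 3.58.1), DESeq2 1.42.0, one model of 16 libraries, a replicate block, and each library left out; for tissues also the K74R libraries, and for ratios other marker denominators. The code was tested on simulated data. Libraries of a group differed by more than sampling noise, so none was taken for a duplicate. Icam4, on the marker lists, had 0 counts in every library.

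Named were all members, and from the target, embryonic globin, partner and E2F lists up to 2 risen and 2 fallen genes per tissue with the smallest p, or the 2 with the smallest p where none passed, with up to 2 genes per cell type list and the 5 genes most like Klf1. Members of marker lists given as standing at 0, Tfrc, Slc25a37, Aqp1 and Hbb-bs were named after their values were seen. One gene that the rule names is not reported here. The members, lists and rules were chosen with earlier results of these data known. Promoters came from RefSeq (GRCm38.p6).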

Additional observations from a re-analysis of the deposited data

Results flagged for a closer look

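For 4 members the K74R effect differed between tissues by the interaction test of edgeR (Benjamini-Hochberg adjusted over 18191 genes). Of all genes, 18.8% were called between bone marrow and MSC and 10.6% between tumor and MSC. In the difference between bone marrow and MSC, Tal1 had 1.45 (adjusted p = 0.0088), Lmo2 1.47 (adjusted p = 0.0040) and E2f2 -1.87 (adjusted p = 0.0026) on the log2 scale. In the difference between tumor and MSC, Ldb1 had 0.51 (adjusted p = 0.0176) and E2f2 -1.66 (adjusted p = 0.0104). Every one of these differences involves the same 2 K74R and 2 WT MSC libraries, and the model shares its estimate of spread across tissues. All 5 kept their direction in each of 19 alternatives. Most of these leave out 1 of the 16 libraries, some from the tissue outside the difference, where little can change. Lmo2, and E2f2 between bone marrow and MSC, passed in all 19. Tal1, Ldb1, and E2f2 between tumor and MSC each passed in 18 of 19. E2f2 was lost there with limma-voom. Tal1 was lost without K74R MSC library 1, and Ldb1 without WT MSC library 2.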

How the results depend on the processing

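Among 40 genotype results on single genes, 503 of 587 values under the alternatives kept their direction and their side of the threshold, 49 lost the call, 20 gained it and 15 changed sign, all 15 of members that were not called. Among 22 tissue results 346 of 352 values kept both. Genes called, K74R against WT, without a filter on low counts came to 875 in bone marrow, 3063 in MSC and 810 in tumor, against 115, 484 and 6 in the edgeR fit. DESeq2 called 533, 1909 and 202, and the model of 16 libraries 60, 4431 and 0. Leaving out 1 library gave 11 to 684 genes in bone marrow, 0 to 581 in MSC and 0 to 124 in tumor. Members called in bone marrow, 1 in the edgeR fit, were 0 with library size alone, limma-voom and the model of 16 libraries, and 0 to 1 with 1 library left out. Members called in MSC, also 1, were 0 with relative log expression factors, library size alone, the 1 CPM filter and limma-voom, 3 without a filter and with DESeq2, 4 in the model of 16 libraries, and 0 to 1 with 1 library left out, where the lone library is assumed to vary like the other pair. The 5 calls of members (4 members, E2f2 in both comparisons with MSC) for differences of the genotype effect between tissues became 8 calls with DESeq2. The 3 members whose ratio to erythroid markers did not overlap became 5 without WT bone marrow library 2 (3 to 5 over the libraries left out). With K74R in place of WT libraries 3 of 10 members were called between tumor and MSC, against 8 in the WT fit. There Zfpm1 (0.15), Ldb1 (0.0857) and E2f2 (-0.39) changed sign. Signs also changed for Zfpm1 in tumor without a filter (-0.0053), with limma-voom (-0.0391), in the model of 16 libraries (-0.0154) and under the replicate block (-0.0196), and for Ldb1 in bone marrow with library size alone (0.0113). With 1 library left out, Zfpm1 ran from -0.18 to 0.0262 in bone marrow, from -1.28 to 0.29 in MSC, from -0.26 to 0.13 in tumor and from -1.11 to 0.46 between tumor and MSC, Ldb1 from -0.0692 to 0.0039 in bone marrow, Tal1 from -0.57 to 0.11 and E2f2 from -0.13 to 0.21 in tumor. The cause was not tested.

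Same-numbered libraries did not deviate together in every pair (correlations of 0.18, 0.07 and -0.04 in bone marrow and -0.13 in MSC). Whether they share more than a number cannot be told from such small correlations. Within an MSC pair the deviations mirror each other, so same-numbered and crossed libraries there differ only in sign (-0.13 and 0.13). With the replicate block 0 members were called in bone marrow, 3 members and 1135 genes in MSC, and 13 genes in tumor. With the MSC numbers crossed, an alternative chosen after seeing the data, 3 members and 1943 genes were called. This crossed block counts among the 14 alternatives of each MSC gene above, and Tal1, Lmo2, E2f2, Pim1 and Lyl1 all passed under it. Depth limits the members near 0 in MSC and tumor, where 3 counts equal about 0.0967 CPM over the WT MSC pair.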
